A study of Mus musculus with 34 samples.

Results

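The level of 9 imprinted genes that control growth, *H19*, *Meg3*, *Dlk1*, *Peg3*, *Plagl1*, *Grb10*, *Mest*, *Ndn* and *Cdkn1c*, was followed in the kidneys of 34 mice at postnatal day 28. The genes were chosen by name from 23509 genes in the tables, and all 9 passed the filter on low counts, which left 15644 genes. Polyadenylated RNA had been sequenced from C57BL6 mice in 3 groups. *Pkd2*-KO mice (spelled Pdk2KO in the labels) received subcutaneous RGLS4326 at 20 mg per kg (n = 11) or PBS (n = 11) on days 10, 11, 12 and 19, and wild-type mice without treatment (UNT, n = 12) served as the reference. In the *Pkd2*-KO mice a Cre recombinase driven by the *Pkhd1* promoter deletes floxed *Pkd2* in kidney tubules, so that cells outside the tubules keep the gene. UNT mice differed from PBS mice both in genotype and in not having been injected, and these cannot be told apart.

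An imprinted gene is transcribed mainly from the allele of one parent, according to DNA methylation laid down in the egg or the sperm. Many paternally expressed genes promote growth of the fetus and many maternally expressed genes restrain it, and a group of them, often called the imprinted gene network, is active together in fetal organs and declines as growth slows after birth. RGLS4326 is a short oligonucleotide complementary to the seed region of miR-17, a microRNA that lowers its target mRNAs through matches in their 3′UTRs.

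Reads assigned to genes ranged from 17603122 to 54981992 per library. Levels are given as CPM, the count relative to the scaled size of the library, and differences as log2 fold changes from edgeR's quasi-likelihood test with Benjamini-Hochberg adjustment over all tested genes (adjusted p), called at an adjusted p under 0.05. *Pkd2* itself stood at 220 to 338 CPM in UNT, 98 to 215 CPM in PBS and 170 to 237 CPM in RGLS4326 mice. The summed level of 6 proximal tubule markers was 9220 to 12100 CPM in UNT kidneys against 1010 to 2950 CPM in PBS and 1830 to 3220 CPM in RGLS4326 kidneys. In whole tissue, fewer cells of a type and less RNA per cell cannot be told apart. PBS mice 2 and 11 stood apart by RNA of the adrenal gland, the organ that lies on the kidney, and the results that rest on them are given with and without both mice.

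Because RGLS4326 acts on the miR-17 seed, the member mRNAs were searched for it, and the sequences are shown 5′ to 3′. The mature microRNA (RefSeq, GRCm38.p6, chr14:115043684-115043706, plus strand) has its seed, bases 2 to 8, in capitals. Matches were sought on the transcript strand in the longest annotated 3′UTR of the 7 coding members, as GCACTTT or CACTTTA, or both together in GCACTTTA. Only *Ndn* held one, the 7-base match in capitals at chr7:62350234-62350240 (plus strand, GRCm38), 849 bases into a 3′UTR of 877 bases. The 3′UTRs of *Dlk1*, *Peg3*, *Plagl1*, *Grb10*, *Mest* and *Cdkn1c*, of 688 to 3614 bases, held 0 matches, and 21.9% of 14200 tested genes with a 3′UTR held at least 1. *H19* and *Mest* also carry a microRNA of their own, miR-675 in an exon of *H19* and miR-335 in an intron of *Mest*, whose seeds, in capitals, differ from that of miR-17.
mmu-miR-17-5p: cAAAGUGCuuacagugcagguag
Ndn 3′UTR site: tctttgatggaCACTTTAgcagaataaac
mmu-miR-675-5p: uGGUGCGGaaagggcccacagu
mmu-miR-335-5p: uCAAGAGCaauaacgaaaaaugu

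The members were first ranked in UNT kidneys by RPKM, the CPM divided by exon length, a scale meant for comparing genes of different length. The length was that of all GENCODE M21 exons of a gene together. The annotation used for the counting is not given, so the counted length may differ. For *Meg3* the length was 18089 bases, and by CPM its UNT mean of 8.15 was above those of *Mest* (7.41) and *Ndn* (7.22). *Cdkn1c* was the highest at a mean of 22.5 RPKM, above 84.4% of 14798 tested genes with a known length, followed by *Grb10* at 7.19 RPKM (above 58.6%). The ranges of these 2 genes overlapped neither each other nor that of *Peg3*. Earlier ages were not measured, and a decline after birth could not be examined for any member. *Peg3* (3.57 RPKM) and *Plagl1* (3.29 RPKM) came next, then *Ndn* (1.96 RPKM) and *Mest* (1.88 RPKM), and the lowest 3 were *H19* (0.833 RPKM), *Meg3* (0.451 RPKM) and *Dlk1* (0.29 RPKM, above 11.1% of genes). From *Peg3* downwards the range of each gene overlapped that of the next. In PBS kidneys *Grb10* (12.2 RPKM) and *Cdkn1c* (10.4 RPKM) headed the order with overlapping ranges, and *Ndn* (6.0 RPKM) moved to the third place. The order of the first 6 genes was the same in RGLS4326 kidneys, from *Grb10* at 13.5 RPKM to *Mest* at 2.84 RPKM.

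The members did not move as a block in the polycystic kidney. In PBS against UNT mice, 3 of the 9 genes were called higher (*Ndn*, *Grb10* and *Mest*) and 2 lower (*Cdkn1c* and *Peg3*), 5 of 9 in all, where 82.1% of all tested genes were called (43.1% higher and 39% lower). The median log2 fold change of the members was 0.345, beside 0.0385 over all tested genes, and it was 0.0146 without PBS mice 2 and 11. Without these mice there were again 5 called (80.1% of tested genes), with *Dlk1* in place of *Peg3*. The levels of UNT and PBS mice did not overlap for *Ndn* and *Cdkn1c*, 2 of 9, as for 42.5% of tested genes. In RGLS4326 against PBS mice, 2 of 9 were called, *Dlk1* and *Ndn*, both lower, where 33.8% of tested genes were called, 15.3% higher and 18.5% lower. The 2 groups overlapped for all 9 members and were apart for 0.0639% of tested genes. Without PBS mice 2 and 11 neither was called (0 of 9 by edgeR, 3 of 9 at an unadjusted p under 0.05, with 18.1% of tested genes called), and DESeq2 on all 34 mice called 1 of 9. In RGLS4326 against UNT mice 5 of 9 were called, beside 77.7% of tested genes (40.8% higher and 36.9% lower), and 5 of 9 also without PBS mice 2 and 11 (77.6%). *Ndn*, *Grb10* and *Mest* were higher, and *Cdkn1c* and *Dlk1* were lower, and the groups did not overlap for *Grb10*, *Ndn* and *Cdkn1c* (3 of 9, with 36.7% of tested genes). These comparisons share groups of mice and are not independent of each other.

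**Figure D1:**
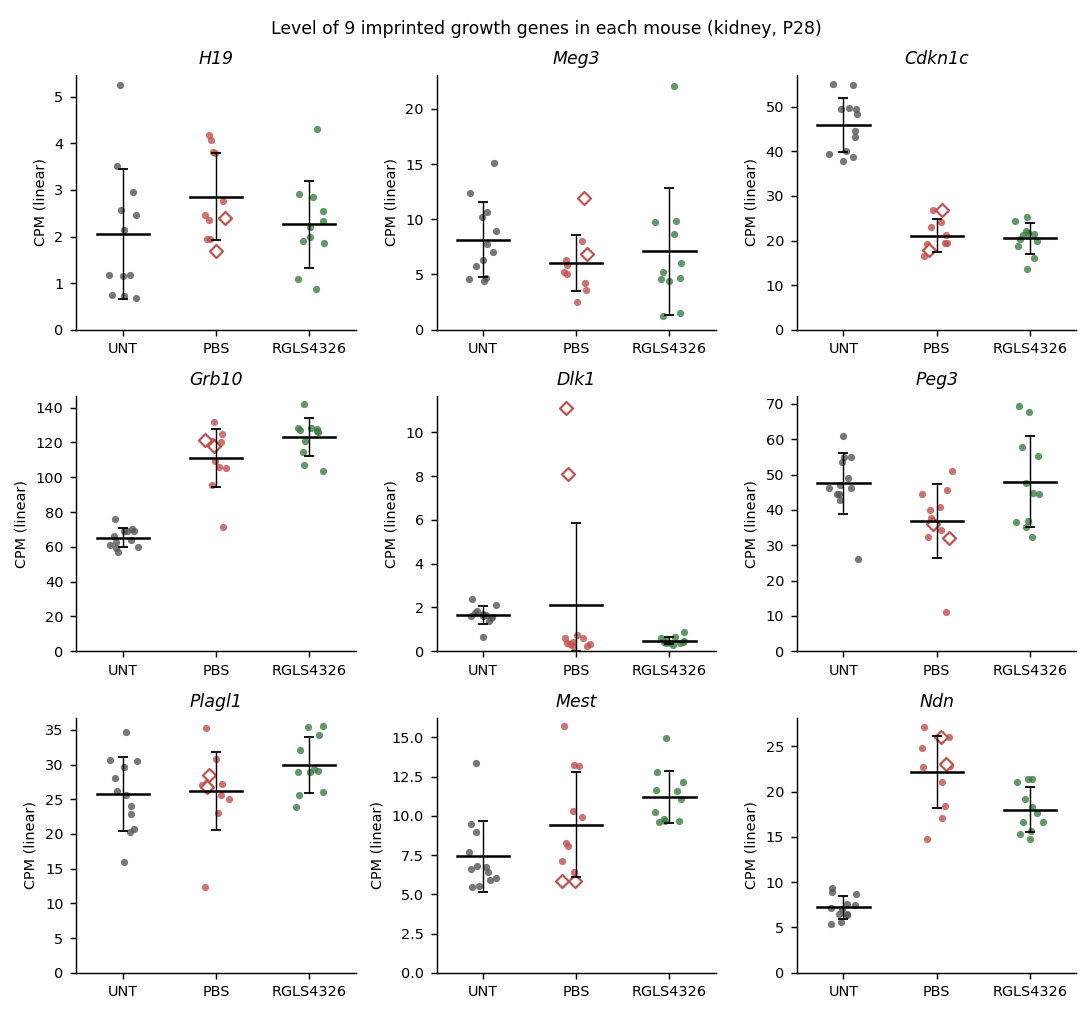
Level of each of the 9 genes (CPM, linear axes from 0) in every mouse of the UNT (n = 12), PBS (n = 11) and RGLS4326 (n = 11) groups. Points are mice, open diamonds are PBS mice 2 and 11, and bars are the mean with the SD, cut at 0 where the SD is larger than the mean. *Cdkn1c* in UNT mice lies above every mouse of both *Pkd2*-KO groups, *Ndn* lies below them, and the 2 high *Dlk1* values are the open diamonds.

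Among the maternally expressed genes, *Cdkn1c* (chromosome 7, 143458339 to 143461050, minus strand, GRCm38) encodes a cyclin-dependent kinase inhibitor that holds cells out of the division cycle and is a marker of mature podocytes. It ranged from 37.88 to 55.16 CPM in UNT mice (median 46.41), from 16.58 to 26.96 CPM in PBS mice (median 19.35) and from 13.67 to 25.35 CPM in RGLS4326 mice (median 21.33). Every *Pkd2*-KO mouse was therefore below every UNT mouse, and the treated and PBS mice overlapped. *Cdkn1c* fell by 1.12 on the log2 scale in PBS against UNT mice (SE 0.09, edgeR adjusted p = 2.968e-13), to 0.46 times the UNT mean, and differed by -0.04 between RGLS4326 and PBS mice (SE 0.10, edgeR adjusted p = 0.7302). Of its exon bases, 30.7% overlap *Gm44732* on the opposite strand, and the strand setting of the counting was not given in the sources used here.

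Markers of podocytes, the filter cells of the glomerulus, moved with *Cdkn1c* in part. Of 6 podocyte markers, 4 were called lower and 2 higher in PBS against UNT mice, where 39% of all tested genes were called lower and 43.1% higher. *Nphs1*, which encodes nephrin of the slit diaphragm, fell by 1.72 on the log2 scale (SE 0.11, edgeR adjusted p = 5.455e-17). The summed level of the 6 markers ran from 604 to 751 CPM in UNT, 403 to 499 CPM in PBS and 449 to 537 CPM in RGLS4326 mice, and no podocyte marker was at 0 in all mice. Between RGLS4326 and PBS mice 4 of the 6 were called higher and 1 lower, among the former *Nphs1* (0.37, SE 0.11, edgeR adjusted p = 0.01054), where 15.3% of all tested genes were called higher and 18.5% lower. Without PBS mice 2 and 11, 3 were called higher and 0 lower, with 18.1% of all tested genes called in either direction. The part of podocytes in the level of *Cdkn1c* was not tested.

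*Grb10* (chromosome 11, 11930508 to 12038683, minus strand), an adaptor that binds the insulin and IGF receptors and dampens their signal, went the other way. UNT mice ranged from 56.91 to 75.74 CPM (median 65.2), PBS mice from 71.59 to 131.8 CPM (median 118.1) and RGLS4326 mice from 103.6 to 142.4 CPM (median 126.6). Only PBS mouse 9, the lowest of its group, lay within the UNT range, and all RGLS4326 mice were above it. *Grb10* rose by 0.77 on the log2 scale in PBS against UNT mice (SE 0.07, edgeR adjusted p = 2.733e-12) and was 1.7 times as high. The difference between RGLS4326 and PBS mice was 0.14 (SE 0.07, edgeR adjusted p = 0.1119).

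The noncoding genes *H19* and *Meg3* varied widely from mouse to mouse. *H19* (chromosome 7, 142575529 to 142578143, minus strand), the host of miR-675, ranged from 0.69 to 5.25 CPM in UNT mice (median 1.66), from 1.69 to 4.18 CPM in PBS mice (median 2.47) and from 0.88 to 4.30 CPM in RGLS4326 mice (median 2.20). The UNT range enclosed both other groups, and its coefficient of variation of 67.9% stood beside a median of 13.9% over all tested genes. The log2 fold change of *H19* was 0.45 in PBS against UNT mice (SE 0.28, edgeR adjusted p = 0.1323) and -0.33 in RGLS4326 against PBS mice (SE 0.29, edgeR adjusted p = 0.3639). With library series as a term the first difference passed the test (0.55, edgeR adjusted p = 0.04919). *Meg3* (chromosome 12, 109541001 to 109571726, plus strand), a nuclear RNA from the same imprinted cluster as *Dlk1*, ranged from 4.37 to 15.09 CPM in UNT (median 7.41), 2.51 to 11.94 CPM in PBS (median 5.87) and 1.27 to 22.07 CPM in RGLS4326 mice (median 5.27). The highest PBS value was that of mouse 2 and the highest RGLS4326 value that of mouse 11, and the groups overlapped. Its log2 fold change was -0.44 in PBS against UNT mice (SE 0.31, edgeR adjusted p = 0.1903) and 0.23 in RGLS4326 against PBS mice (SE 0.32, edgeR adjusted p = 0.5767), and without RGLS4326 mouse 11 the second was -0.10. Without PBS mice 2 and 11 the values were -0.62 (edgeR adjusted p = 0.07869) and 0.42 (edgeR adjusted p = 0.3502). With the share of reads that fell in no gene as a covariate, the second was -0.75.

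Of the paternally expressed genes, *Ndn* was the 1 that set UNT apart from all *Pkd2*-KO mice. *Ndn* (chromosome 7, 62346569 to 62350262, plus strand) encodes necdin, a protein of the MAGE family that restrains proliferation and is known from postmitotic neurons. The 12 UNT mice ranged from 5.38 to 9.40 CPM (median 7.09), the 11 PBS mice from 14.78 to 27.08 CPM (median 22.82) and the 11 RGLS4326 mice from 14.71 to 21.40 CPM (median 17.59). No UNT mouse reached the lowest *Pkd2*-KO mouse, whereas all but 1 of the RGLS4326 mice lay within the PBS range, and all 11 were below the PBS mean of 22.17 CPM. *Ndn* rose by 1.62 on the log2 scale in PBS against UNT mice (SE 0.10, edgeR adjusted p = 1.097e-16), to 3.07 times the UNT mean.

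*Ndn* then fell by 0.30 in RGLS4326 against PBS mice (SE 0.10, edgeR adjusted p = 0.02282), to 0.811 times the PBS mean and still 2.49 times the UNT mean. The call depended on which mice were in the fit. The log2 difference was -0.27 without PBS mice 2 and 11 (edgeR adjusted p = 0.07161), -0.26 without PBS mouse 9, the highest PBS mouse (adjusted p = 0.05721), and -0.30 without PBS mice 2 and 11 and RGLS4326 mouse 10 (adjusted p = 0.04601). With the share of reads that fell in no gene as a covariate, it was -0.15 (adjusted p = 0.3901). Over all 16 alternatives the treatment difference stayed between -0.409 and -0.155, with the call kept in 10. The difference of *Ndn*, whose 3′UTR holds the seed match printed above, was thus negative in all of these fits, with the call lost in 6. Nothing about binding of miR-17 follows from the match.

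*Dlk1* (chromosome 12, 109452823 to 109463336, plus strand) encodes a transmembrane ligand related to those of Notch that keeps progenitor cells undifferentiated, and the rodent adrenal gland is known to express it. By replicate number, the 12 UNT mice were at 1.68, 2.10, 1.36, 0.65, 1.60, 1.68, 1.74, 2.40, 1.60, 1.54, 1.82 and 1.52 CPM. The 11 PBS mice were at 0.74, 11.10, 0.34, 0.23, 0.34, 0.22, 0.59, 0.62, 0.39, 0.43 and 8.07 CPM, and the 11 RGLS4326 mice at 0.39, 0.53, 0.45, 0.28, 0.65, 0.36, 0.44, 0.38, 0.40, 0.59 and 0.88 CPM. PBS mice 2 and 11 were above every other mouse, while 8 of the 11 PBS mice were below every UNT mouse.

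With all mice, *Dlk1* did not pass the test in PBS against UNT mice (log2 fold change 0.34, SE 0.50, edgeR adjusted p = 0.5237) and was called 2.09 lower on the log2 scale in RGLS4326 against PBS mice (-2.09, SE 0.57, edgeR adjusted p = 0.008733). Without PBS mice 2 and 11 both results changed. *Dlk1* was then at 0.433 ± 0.181 CPM (SD, n = 9) in PBS mice against 1.64 ± 0.42 CPM (n = 12) in UNT mice, that is, lower by a log2 value of -1.92 (SE 0.21, edgeR adjusted p = 3.298e-10). RGLS4326 mice, at 0.487 ± 0.170 CPM (n = 11), differed from these 9 PBS mice by 0.18 (SE 0.23, edgeR adjusted p = 0.5802). Against UNT mice *Dlk1* was lower in RGLS4326 mice with all mice in the fit (-1.75, SE 0.57, edgeR adjusted p = 0.006029), and 10 of 11 treated mice were below every UNT mouse. This call was lost in 2 of 15 alternatives, library series 1 alone (-1.80, adjusted p = 0.1039) and series 3 alone (-1.52, adjusted p = 0.1413). These levels rest on few reads, with 5 to 22 counts of *Dlk1* per RGLS4326 library and 7 to 26 in the 9 other PBS libraries.

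The same PBS mice carried adrenal RNA. Over 8 markers of the adrenal cortex and medulla (*Cyp11a1*, *Cyp11b1*, *Cyp11b2*, *Cyp21a1*, *Nr5a1*, *Dbh*, *Pnmt* and *Th*), the summed level was 412 CPM in PBS mouse 2 and 745 CPM in PBS mouse 11. It was 0.333 to 13.2 CPM in the 9 other PBS mice, 17.8 CPM in RGLS4326 mouse 10, 0.222 to 3.6 CPM in the 10 other treated mice and 0.0668 to 0.808 CPM in UNT mice. *Cyp11b1*, the last enzyme of glucocorticoid synthesis, was at 97.0 CPM in PBS mouse 2 and 202 CPM in PBS mouse 11 and had 0 counts in all 12 UNT mice, as had *Cyp11b2*, the aldosterone synthase. A ninth marker, *Star*, which carries cholesterol into mitochondria, was present in every UNT kidney at 2.34 to 3.93 CPM and was left out of the sum. The part of adrenal tissue in the *Dlk1* values was not tested. The difference of mean log2 *Dlk1* levels between RGLS4326 and PBS mice was 0.52 in the library series that held neither mouse and -1.77 and -0.83 in the series that held 1 of them each.

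**Figure D2:**
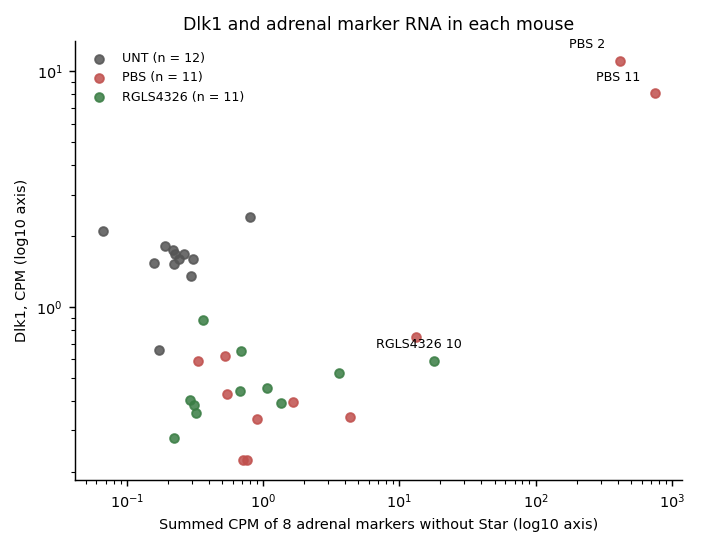
*Dlk1* (CPM) against the summed CPM of 8 adrenal markers in each of 34 mice, both on log10 axes, with points coloured by group. PBS mice 2 and 11 lie alone at the upper right, at 412 and 745 CPM of adrenal markers, and RGLS4326 mouse 10, at 17.8 CPM, has a *Dlk1* level among those of the other treated mice.

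*Peg3* (chromosome 7, 6703892 to 6730431, minus strand) encodes a large zinc finger protein. It ranged from 26.15 to 60.82 CPM in UNT (median 46.73), 11.12 to 51.15 CPM in PBS (median 37.6) and 32.24 to 69.31 CPM in RGLS4326 mice (median 44.7). PBS mouse 9 was far below the rest of its group, and the groups overlapped. *Peg3* was lower in PBS than in UNT mice by a small margin (log2 fold change -0.37, SE 0.16, edgeR adjusted p = 0.03316), a call that was lost without PBS mice 2 and 11 (-0.34, adjusted p = 0.06812) and kept without PBS mouse 9 (-0.30, adjusted p = 0.0315). Of 15 alternatives 4 lost the call, among them library series 1 alone (-0.37, adjusted p = 0.05573) and series 3 alone (-0.55, adjusted p = 0.1459). The difference of 0.38 between RGLS4326 and PBS mice did not pass the test (SE 0.16, edgeR adjusted p = 0.06446), although 4 treated mice lay above every PBS mouse, and the call depended on the terms of the fit. It passed with library series as a term (0.40, edgeR adjusted p = 0.02803), whereas with the no-gene read share added as a covariate the difference was 0.0754 (adjusted p = 0.7931).

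*Plagl1* (chromosome 10, 13060504 to 13131694, plus strand), a zinc finger transcription factor that is known to regulate other imprinted genes, passed the test in neither of the first comparisons. Its range was 16.03 to 34.68 CPM in UNT (median 25.92), 12.3 to 35.27 CPM in PBS (median 27.06) and 23.85 to 35.6 CPM in RGLS4326 mice (median 29.08). The log2 fold changes were 0.03 in PBS against UNT mice (SE 0.12, edgeR adjusted p = 0.8219) and 0.19 in RGLS4326 against PBS mice (SE 0.12, edgeR adjusted p = 0.2163). The lowest value was again that of PBS mouse 9.

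*Mest* (chromosome 6, 30723547 to 30748465, plus strand), a hydrolase of mesodermal tissue and the host of miR-335, ranged from 5.45 to 13.35 CPM in UNT (median 6.66), 5.82 to 15.73 CPM in PBS (median 8.24) and 9.59 to 14.99 CPM in RGLS4326 mice (median 11.08). UNT and PBS mice overlapped widely, and all 11 treated mice were above the UNT mean of 7.41 CPM. The rise in PBS against UNT mice was small (log2 fold change 0.34, SE 0.16, edgeR adjusted p = 0.04151). It was 0.46 without PBS mice 2 and 11, which share the lowest PBS values (adjusted p = 0.005926), 0.33 without PBS mouse 9 (adjusted p = 0.06278), and the call held in 7 of 15 alternatives. In RGLS4326 against UNT mice *Mest* was 0.59 higher (SE 0.16, edgeR adjusted p = 0.0009236), a call lost in 1 of 15 alternatives (library series 2, 0.32, adjusted p = 0.1805), and against PBS mice 0.25 (SE 0.16, edgeR adjusted p = 0.2206). Without PBS mice 2 and 11 the difference between RGLS4326 and PBS mice was 0.13 (edgeR adjusted p = 0.5539). Of the *Mest* exon bases, 23.1% overlap *Copg2* on the opposite strand. How reads there were counted depends on the strand setting, which was not given in the sources used here. *Copg2* differed by -0.0038 on the log2 scale between PBS and UNT mice (SE 0.06, edgeR adjusted p = 0.9545).

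**Figure D3:**
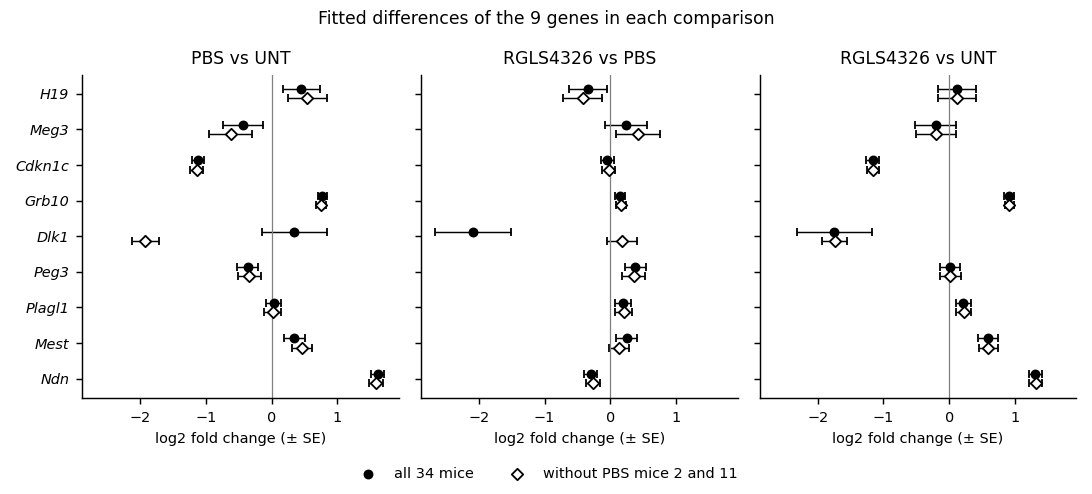
Log2 fold change with its SE for the 9 genes in PBS against UNT, RGLS4326 against PBS and RGLS4326 against UNT mice, from the fit of all 34 mice (filled circles) and without PBS mice 2 and 11 (open diamonds). Only *Dlk1* shifts by more than its SE, from 0.34 to -1.92 in PBS against UNT and from -2.09 to 0.18 in RGLS4326 against PBS mice.

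The titles number the mice, and the libraries form 3 series by the restart of the library number. Within series 1, 2 and 3, the difference of mean log2 levels between PBS and UNT mice was -1.26, -1.21 and -0.92 for *Cdkn1c*, 0.88, 0.78 and 0.64 for *Grb10*, and 1.67, 1.16 and 1.99 for *Ndn*. For *Mest* it was 0.36, -0.08 and 0.63, and for *H19* 1.25, -0.25 and 1.08, so those differences did not hold in series 2. Fitted within 1 series, *H19* was called higher in series 1 (edgeR adjusted p = 0.04132) and in series 3 (adjusted p = 0.03794), and *Meg3* was called lower in series 2 (-1.02, adjusted p = 0.0008702). The difference between RGLS4326 and PBS mice in *Ndn* was -0.20, -0.28 and -0.42. An edgeR test of whether the treatment difference varied among series called 0 of 9 members and 0% of 15233 genes (at an unadjusted p under 0.05, 0 members and 796 genes), with the smallest member p, 0.08893 before adjustment, for *Dlk1*.

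Other imprinted genes were called in both directions. Of 35 further imprinted genes, 27 were tested, and 10 were called higher and 11 lower in PBS against UNT mice (median log2 fold change -0.03), beside 43.1% and 39% of all tested genes, so the count was near that background. *Nnat*, a small membrane protein of the endoplasmic reticulum, rose by 3.77 (SE 0.20, edgeR adjusted p = 1.155e-18), from 0.953 to 13.4 CPM on average. *Slc38a4*, an amino acid transporter, rose by 1.996 (SE 0.10, edgeR adjusted p = 4e-19), and *Sgce*, a sarcoglycan, by 1.67 (SE 0.07, edgeR adjusted p = 1.967e-21). *Slc22a18*, a transporter gene in the imprinted domain of *Cdkn1c*, fell by 2.32 (SE 0.13, edgeR adjusted p = 6.718e-18), from 342 to 68.6 CPM.

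In RGLS4326 against PBS mice 6 of these 27 genes were called higher and 3 lower, where 33.8% of all tested genes were called, and without PBS mice 2 and 11, 2 higher and 1 lower, where 18.1% were. Taken over both directions, neither count stood above the share of all genes. With all mice, 15.3% of all tested genes were called higher and 18.5% lower. The 6 called higher were above the first share and the 3 called lower below the second. *Asb4*, which encodes an ankyrin repeat protein, was 0.56 higher (SE 0.14, edgeR adjusted p = 0.005242) and 0.57 higher without both mice (adjusted p = 0.01856). *Tssc4* was lower, with a log2 difference of -0.26 (SE 0.08, edgeR adjusted p = 0.0126) and of -0.24 without both mice (adjusted p = 0.04317). *Kcnq1ot1*, the noncoding RNA that silences the domain of *Cdkn1c* on the paternal chromosome, was 2.05 lower in PBS than in UNT mice on the log2 scale (-2.05, SE 0.29, edgeR adjusted p = 9.2e-08) and 0.93 higher in RGLS4326 than in PBS mice (SE 0.30, edgeR adjusted p = 0.01745). The second difference was 0.82 without PBS mice 2 and 11 (adjusted p = 0.06027). With the no-gene read share as a covariate, 89 genes were called in RGLS4326 against PBS mice, against 5280 without it. The values of the genes named here in that fit are not given.

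The growth genes known to decline after birth along with the imprinted gene network were called in one direction. This list and that of the matrix genes below were chosen with earlier results of these data known, so their counts are descriptions. All 9 tested of 11 listed were called higher in PBS against UNT mice, with a median log2 fold change of 0.99, where 43.1% of all tested genes were called higher. In RGLS4326 against PBS mice 0 of 9 were called by edgeR (0 of 9 also without PBS mice 2 and 11), where 33.8% of all tested genes were called. *Igf2bp3*, an RNA-binding protein of fetal tissue, rose by 2.39 (SE 0.15, edgeR adjusted p = 1.101e-16), and *Gpc3*, a cell-surface proteoglycan that limits growth, by 1.35 (SE 0.12, edgeR adjusted p = 4.301e-13). All 10 extracellular matrix genes listed with the network were also called higher in PBS against UNT mice, with a median of 2.37, 4 of which (*Col1a1*, *Col3a1*, *Dcn* and *Lum*) also stand among the fibroblast markers described next. *Col6a3*, a chain of collagen VI, was the 1 of the 10 called in RGLS4326 against PBS mice (0.53 higher, SE 0.15, edgeR adjusted p = 0.01019).

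Markers of other cells moved at the same time, and their counts stand beside the 43.1% of all tested genes called higher and the 39% called lower in PBS against UNT mice. All 8 interstitial fibroblast markers were called higher in PBS against UNT mice, and their summed level ran from 527 to 1230 CPM in UNT, 2570 to 5460 CPM in PBS and 3450 to 5090 CPM in RGLS4326 mice. All 6 leukocyte markers were called higher as well (74.5 to 124 CPM in UNT, 298 to 597 CPM in PBS and 303 to 548 CPM in RGLS4326 mice), as were all 6 proliferation genes, with *Mcm2*, a licensing factor of DNA replication, 0.74 higher (SE 0.09, edgeR adjusted p = 1.409e-09). Nephron progenitor markers went the other way, with 4 of 5 tested called lower and 0 higher (3 lower without PBS mice 2 and 11) and a median summed level of 38.6 CPM in UNT against 28.2 CPM in PBS mice. Of 6 endothelial markers 4 were called lower and 2 higher, and of 6 distal nephron markers likewise (4 lower and 1 higher without PBS mice 2 and 11), so both lists were divided, as were all tested genes. No marker of these lists was at 0 in all mice of a group.

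Markers also differed between RGLS4326 and PBS mice, where 15.3% of all tested genes were called higher and 18.5% lower. Of the endothelial markers 5 of 6 were called higher, of the proximal tubule markers 3 of 6 higher, of the distal nephron markers 4 higher and 1 lower, and of the fibroblast markers 1 of 8 higher, the last near the share of all genes. Of the leukocyte markers 2 of 6 were called lower, among them *Cd68*, a lysosomal protein of macrophages, by a log2 difference of -0.80 (SE 0.17, edgeR adjusted p = 0.002577). Without PBS mice 2 and 11, 3 endothelial, 3 proximal tubule and 2 distal nephron markers were called higher and 2 leukocyte markers lower, where 18.1% of all tested genes were called in either direction. The part of these cell types in the levels of *Ndn*, *Grb10*, *Mest* and *Dlk1*, in either comparison, was not tested.

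Members were next compared from mouse to mouse within a group. Of 108 relations (36 pairs of members in each of 3 groups), Pearson's and Spearman's coefficients both had a permutation p under 0.05 in 17 before adjustment and both passed adjustment over all of them in 1, *H19* with *Mest* in UNT mice (n = 12, r = 0.89, permutation p = 1e-05, the smallest that the permutations can give, adjusted 0.00108, and rho = 0.92, permutation p = 0.0001, adjusted 0.0108). Without the 2 mice farthest from the median of *H19*, r was 0.85. In PBS mice r was 0.77 (n = 11, permutation p = 0.00737, adjusted 0.0807) and in RGLS4326 mice 0.61 (n = 11, permutation p = 0.0473, adjusted 0.217). UNT mice of library series 2 held the high values of both genes, with means of 3.57 CPM for *H19* and 9.62 CPM for *Mest*, against 1.27 and 6.19 CPM in series 1 and 1.3 and 6.43 CPM in series 3. With the mean of each series removed, an alternative chosen after seeing the data, r was 0.73 in UNT, 0.83 in PBS and 0.53 in RGLS4326 mice, given as a description because the pair was picked as the 1 that had passed.

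The genes whose log2 levels followed *Meg3* and *Peg3* most closely from mouse to mouse were neighbours in the same imprinted cluster. *Rian*, a noncoding RNA of the *Dlk1* and *Meg3* cluster, followed *Meg3* with a mean Pearson r of 0.89 over the 3 groups (0.93 in 12 UNT, 0.83 in 11 PBS and 0.9 in 11 RGLS4326 mice), and the PBS value was 0.73 without PBS mice 2 and 11. *Rian* was also the gene closest to *Dlk1* (mean r 0.71), but in PBS mice that relation rested on mice 2 and 11, with r of 0.76 in all 11 and 0.18 in the 9 others. *Zim1*, a zinc finger gene beside *Peg3*, followed *Peg3* with a mean r of 0.89 (0.93, 0.88 and 0.86). *Mest* was the gene closest to *H19* (mean r 0.76), although they lie on different chromosomes. *Peg3* was the second closest to *Plagl1* (0.77), behind *Gulp1* (0.78), and their r in PBS mice was 0.92, or 0.46 without PBS mouse 9. These are descriptions over mice that share library series and depth, picked as the highest of all tested genes. The no-gene read share, 4.938 to 12.01% in RGLS4326 libraries, also varied among mice and was not removed from these relations. With it as a covariate, the differences between RGLS4326 and PBS mice became -0.75 for *Meg3* and 0.0754 for *Peg3*. Its part in the likeness was not tested. *Zim1* was 0.97 lower in PBS than in UNT mice on the log2 scale (-0.97, SE 0.26, edgeR adjusted p = 0.001199) and 0.83 higher in RGLS4326 than in PBS mice (SE 0.27, adjusted p = 0.02011), 0.72 without PBS mice 2 and 11 (adjusted p = 0.06499). *Rian* differed by 0.32 (adjusted p = 0.1319) and -0.09 (adjusted p = 0.7578). With the no-gene read share as a covariate, 89 genes were called in RGLS4326 against PBS mice, against 5280 without it. The value of *Zim1* in that fit is not given here.

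**Figure D4:**
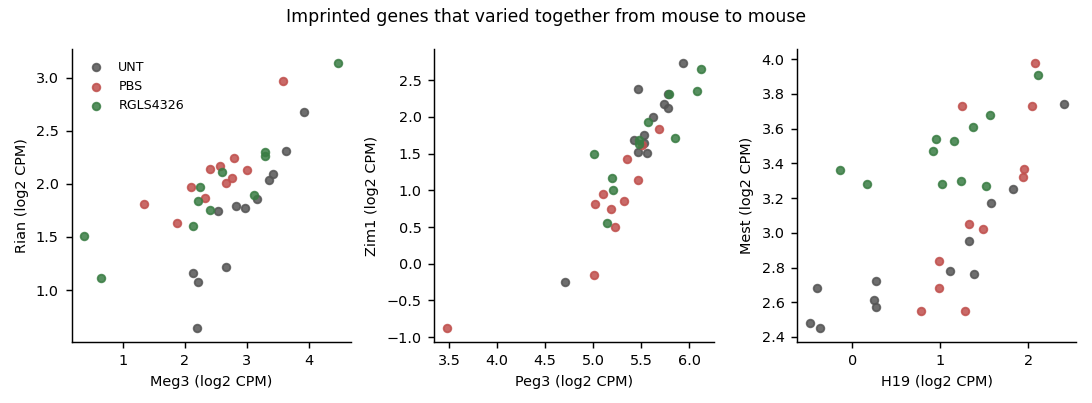
Log2 CPM (prior count 1) of *Rian* against *Meg3*, *Zim1* against *Peg3* and *Mest* against *H19* in 34 mice, coloured by group. Pearson's r is positive in each group and panel, with mean r of 0.89, 0.89 and 0.76. For *Mest* against *H19* it was lowest in RGLS4326 mice (0.61, permutation test, adjusted p = 0.217). The lowest point for *Peg3* is PBS mouse 9.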

How the data were processed

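Kidney RNA of 34 mice was analysed from the read counts that the authors deposited, raw and unpooled, in 1 table for each mouse. The authors made stranded mRNA libraries, trimmed the reads with TrimGalore, mapped them to GRCm38 (mm10) with STAR and counted uniquely mapped reads with HTSeq (version 0.6.1 in the submitters' processing notes). The gene annotation and strand setting of the counting are not given in the sources used here. Reads in no gene made up 5.175 to 8.995% in PBS, 4.938 to 12.01% in RGLS4326 and 9.843 to 11.35% in UNT libraries and were left out of library sizes. Reads that mapped to several places made up 14.81 to 19.38% in PBS, 14.75 to 19.07% in RGLS4326 and 22.84 to 25.65% in UNT libraries. Neither share overlapped between UNT and PBS libraries, so these shares and the group cannot be told apart there, and the first was a covariate in RGLS4326 against PBS mice only. No 2 libraries were identical (0 pairs).

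Genes were filtered with filterByExpr, scaled by TMM and tested with edgeR (version 4.0.16, R version 4.3.3), non-robust quasi-likelihood, in a single fit of 34 libraries with 3 groups, two-sided, and the procedure was tested on simulated data. DESeq2 (version 1.42.0), other scalings, filters, covariates and single library series were alternatives. Positions and exon lengths came from GENCODE M21 on GRCm38. Correlations used log2 CPM with a prior count of 1 and two-sided permutation tests with 100000 resamples. The members and gene lists (other imprinted genes, growth and matrix genes, cell markers) were chosen with earlier results of these data known. From each list the 4 called genes with the smallest p in each of the first 2 comparisons could be named, as could the 3 genes most alike each member in their levels from mouse to mouse (among them *Rian* and *Zim1*). All members, *Copg2* and the adrenal markers were named besides. Some genes that this rule names are not reported here. The labels do not say that samples of a group are separate litters or cages, so p-values measure the spread between mice.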

Additional observations from a re-analysis of the deposited data

How the results depend on the processing

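The alternatives were the other scalings, the filter, DESeq2, the libraries fitted, covariates, single library series, and 4 sets of left-out mice chosen after seeing the data. *Cdkn1c*, *Grb10* and *Ndn* in PBS against UNT and in RGLS4326 against UNT mice kept their direction and call under all 15 alternatives, with log2 fold changes of -1.3 to -0.922, 0.661 to 0.842 and 1.16 to 1.99 in the first comparison and -1.44 to -1.09, 0.858 to 0.971 and 0.857 to 1.58 in the second. Causes were not tested. In RGLS4326 against PBS mice, 5280 genes were called, and 2836 without PBS mice 2 and 11, 54 in series 1, 4065 in series 2, 0 in series 3 (edgeR; 2826 at an unadjusted p under 0.05), 5859 with library series as a term and 89 with the no-gene read share as a covariate, and between 2836 and 4509 over the 4 sets of left-out mice. Of the members 2 were called there, and 0 without PBS mice 2 and 11, in series 1, in series 3 and with that covariate, 1 without PBS mouse 9 (*Dlk1*), without PBS mice 2 and 11 and RGLS4326 mouse 10 (*Ndn*), in DESeq2 (*Ndn*) and in series 2 (*Peg3*, higher, 0.588), and 3 with library series as a term (*Dlk1* and *Ndn* lower, *Peg3* higher). PBS against UNT turned in sign for *Dlk1* (-1.92 without PBS mice 2 and 11, -1.92 also without RGLS4326 mouse 10, -1.72 in DESeq2, which replaces outlying counts, and -2.43 in series 2), *H19* (-0.288, series 2), *Mest* (-0.149, series 2), *Meg3* (0.0741, series 1) and *Plagl1* (-0.00577 in DESeq2, -0.00528 with its size factors, -0.0495 in series 2, -0.0756 in series 3 and -0.0118 unfiltered). RGLS4326 against PBS turned for *Dlk1* (0.177 and 0.142 without those mice, 0.452 in series 2), *Cdkn1c* (0.00639 without PBS mouse 9, 0.173 in series 1, 0.0825 with the covariate) and *Meg3* (-0.103 without RGLS4326 mouse 11, -0.731 in series 1, -0.75 with the covariate). RGLS4326 against UNT turned for *H19* (-0.0158 without RGLS4326 mouse 11, -0.55 in series 2), *Meg3* (0.49, series 3) and *Peg3* (-0.00114 without PBS mouse 9, -0.0224 in DESeq2, -0.0221 with its size factors, -0.179 in series 1, -0.0788 in series 3, -0.011 unfiltered, -0.0236 with 2 groups fitted). The deviations of same-numbered mice had a correlation over 0.1 in 1, 5 and 3 of 11 pairs in PBS against UNT, RGLS4326 against PBS and RGLS4326 against UNT mice, so the numbers were not taken to pair them. With the replicate number as a block, *Dlk1* was -0.859 in PBS against UNT mice (adjusted p = 0.07248) and -1.05 in RGLS4326 against PBS mice (adjusted p = 0.09402), and 12781, 5098 and 12162 genes and 4, 2 and 6 members were called in the 3 comparisons, the 2 being *Ndn* (lower) and *Peg3* (0.42 higher, adjusted p = 0.03101). In that fit *Mest* lost its call in PBS against UNT mice, and *Plagl1* was called higher in RGLS4326 against UNT mice (edgeR adjusted p = 0.01261). Over the left-out mice, values reached 0.421 for *Dlk1* in PBS against UNT mice, -2.2 for *Dlk1*, -0.0539 for *Cdkn1c* and 0.471 for *Meg3* in RGLS4326 against PBS mice, and 0.118 for *H19* and 0.0264 for *Peg3* in RGLS4326 against UNT mice. The low counts of *Dlk1* and *H19* limit what could be seen in them.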

Other observations

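*Ndn*, *Mest*, *Grb10* and *Cdkn1c* varied from mouse to mouse most closely (mean Pearson r of log2 levels over the 3 groups) with genes outside the list of imprinted genes. *Marcksl1* (mean r 0.9), *Tmem106c* (0.89) and *Maged2*, like *Ndn* a MAGE family gene (0.89), were closest to *Ndn*. *Col6a3* (0.83), *Mylk* (0.79) and *Fn1* (0.79), a collagen, a myosin kinase and fibronectin, were closest to *Grb10*, *Bcl6b* (0.86) to *Mest* and *Rabl6* (0.79) to *Cdkn1c*. Single mice tended to hold several extremes: UNT mouse 8 was the highest UNT mouse in 6 of the 9 members, UNT mouse 4 the lowest in 5, RGLS4326 mouse 11 the highest treated mouse in 4 and PBS mouse 9 the lowest PBS mouse in 3.

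Fat tissue markers also differed between groups. Of 5 adipose markers, 4 were called higher in PBS against UNT mice (43.1% of all tested genes) and 3 lower in RGLS4326 against PBS mice (18.5%), with the same counts without PBS mice 2 and 11. *Cfd*, the complement factor secreted by fat cells, was 2.03 higher (SE 0.31, edgeR adjusted p = 2.714e-07) and then 1.58 lower on the log2 scale (-1.58, SE 0.31, adjusted p = 0.001646). Their summed level was 16.9 to 179 CPM in UNT, 102 to 432 CPM in PBS and 58.0 to 166 CPM in RGLS4326 mice, the highest in PBS mouse 2. Of 5 Schwann cell and nerve markers 2 were called higher and 1 lower in PBS against UNT mice, and of 5 skeletal muscle markers 2 were tested, 1 called higher and 1 lower.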
